A study of Arabidopsis thaliana with 12 samples.

Results

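The pericentromere core of Arabidopsis thaliana was followed across the 5 chromosomes as 1469 of the 33602 loci in the deposited tables. Members were chosen by locus name alone: AT1G38 to AT1G41, AT2G10 to AT2G12, AT3G32 to AT3G40, AT4G06 and AT5G29 to AT5G34, whether or not any read was assigned to them. The blocks held 162 loci on chromosome 1, 369 on chromosome 2, 236 on chromosome 3, 223 on chromosome 4 and 479 on chromosome 5. In the RefSeq annotation of TAIR10.1, 1270 members (86.5%) were pseudogenes, 171 were protein-coding, 9 were noncoding RNAs and 19 had no entry. Outside the core, 82.6% of loci were protein-coding and 11.1% were pseudogenes. By annotated position, each block lay within 1066803 to 2252863 bases of 1 chromosome, apart from the single locus AT3G36659. The annotation places AT3G36659 at 2100021 on chromosome 3, far from the rest of its block. The blocks were not compared with centromere coordinates, so the label of pericentromere core rests on the locus names.

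RNA was measured in whole seedlings aged 10 days, grown at 21 °C with 16 hours of light and 8 hours of dark. The 4 groups were Col-0 wild type and atrx-2 mutant seedlings, grown under normal light (130 µmol per square metre and second) or low light (30), with 3 libraries per group. The labels name 1 mutant allele without saying how it was made, and all libraries were run in 1 flow cell. Seedlings are a mix of tissues, so fewer cells of a type and less RNA per cell cannot be told apart, and the labels do not state whether replicates are separate cultures. The p-values then cover the spread among these libraries, which may be technical.

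Plant pericentromeres are packed as heterochromatin, rich in transposable elements and their decayed copies, and are held silent by DNA methylation, repressive histone methylation and small RNAs. ATRX is a chromatin remodeller that helps place the histone variant H3.3, and in animals it is known at repeats and pericentromeric heterochromatin. A minority of ordinary genes lie inside this heterochromatin and are expressed there, so a core holds silent and active loci side by side.

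The annotated starts of 6 core loci are shown first, because the results on genotype and light turn on them. Each stretch runs from 250 bases before to 50 bases after the annotated start, 5′ to 3′ on the strand of the locus, in the TAIR10.1 build from RefSeq. Capitals mark 3 motifs searched on both strands: CACGTG (G-box), GATAAG (I-box) and TATAAA, which reads TTTATA on the other strand.
AT3G32020, chr3:12991756-12992055, forward strand: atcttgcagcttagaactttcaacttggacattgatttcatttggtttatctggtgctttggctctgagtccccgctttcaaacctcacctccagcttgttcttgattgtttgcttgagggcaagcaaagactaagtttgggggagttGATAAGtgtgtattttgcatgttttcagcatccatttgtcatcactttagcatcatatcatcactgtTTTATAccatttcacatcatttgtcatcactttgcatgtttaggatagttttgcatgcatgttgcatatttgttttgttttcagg
AT5G33390, chr5:12661458-12661757, forward strand: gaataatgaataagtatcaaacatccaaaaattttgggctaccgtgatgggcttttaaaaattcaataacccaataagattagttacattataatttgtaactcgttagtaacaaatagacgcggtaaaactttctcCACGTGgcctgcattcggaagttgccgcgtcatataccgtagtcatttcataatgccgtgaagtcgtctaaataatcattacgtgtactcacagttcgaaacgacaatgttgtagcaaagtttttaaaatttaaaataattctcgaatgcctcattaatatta
AT5G33395, chr5:12664256-12664555, forward strand: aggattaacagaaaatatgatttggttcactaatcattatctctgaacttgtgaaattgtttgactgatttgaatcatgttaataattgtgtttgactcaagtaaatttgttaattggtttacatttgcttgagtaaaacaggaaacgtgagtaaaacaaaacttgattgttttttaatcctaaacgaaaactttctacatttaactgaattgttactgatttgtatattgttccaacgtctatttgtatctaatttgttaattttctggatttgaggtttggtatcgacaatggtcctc
AT2G10410, chr2:4006995-4007294, reverse strand: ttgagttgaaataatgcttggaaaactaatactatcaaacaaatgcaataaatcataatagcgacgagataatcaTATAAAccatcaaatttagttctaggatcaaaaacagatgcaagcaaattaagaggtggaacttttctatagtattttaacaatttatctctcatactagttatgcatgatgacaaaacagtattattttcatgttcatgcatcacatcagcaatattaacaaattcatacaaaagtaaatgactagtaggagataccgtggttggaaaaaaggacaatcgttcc
AT4G06477, chr4:3065245-3065544, reverse strand: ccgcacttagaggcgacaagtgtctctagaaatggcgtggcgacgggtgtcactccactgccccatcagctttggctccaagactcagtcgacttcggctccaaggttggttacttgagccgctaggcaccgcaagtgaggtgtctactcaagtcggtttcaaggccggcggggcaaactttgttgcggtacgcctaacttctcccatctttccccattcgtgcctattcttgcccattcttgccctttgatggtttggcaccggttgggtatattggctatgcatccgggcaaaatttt
AT5G33370, chr5:12604783-12605082, reverse strand: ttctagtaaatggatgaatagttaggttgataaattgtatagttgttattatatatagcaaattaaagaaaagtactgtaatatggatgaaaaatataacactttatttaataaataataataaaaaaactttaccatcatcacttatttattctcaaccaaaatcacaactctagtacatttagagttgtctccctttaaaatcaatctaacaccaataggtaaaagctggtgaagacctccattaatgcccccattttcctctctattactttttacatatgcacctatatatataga
The first 3 loci held reads in atrx-2 and few or none in wild type, and the other 3 changed with light. The start of AT3G32020 held 1 GATAAG and 1 TATAAA, that of AT5G33390 held 1 CACGTG, and that of AT2G10410 (SADHU1-1) held 1 TATAAA. The windows of AT5G33395, AT4G06477 and AT5G33370 held none of these letters. Over 1450 core starts, CACGTG stood in 2.48%, GATAAG in 17.7% and TATAAA in 33.4%, against 6.90%, 15% and 50% of all 32834 annotated starts.

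Library totals ran from 13733302 to 23899191 estimated counts. ATRX itself had 753, 733 and 905 counts in wild type under normal light, where atrx-2 had 20, 18 and 16, and 681, 564 and 537 against 7, 6 and 15 under low light, so every library matched its genotype label. The share of ribosomal RNA was 3.73% to 8.67% in normal-light libraries and 9.81% to 16.7% in low-light ones. With organelle and ribosomal RNA loci left out, the light counts given below were again 14 and 12. Of 13 marker genes, the 7 of leaf, root and shoot apex were present and the 6 of flower, pollen and seed lay between 0 and 0.673 CPM, with VGD1 and SESA1 at 0 in 11 of the 12 libraries. By edgeR, 3 of the 7 changed with light in both genotypes. LHCB1.3, a light-harvesting protein, rose from means of 6249 to 15867 CPM in wild type and 6294 to 14262 in atrx-2. RBCS3B, a Rubisco subunit, fell from 7366 to 5321 and from 6445 to 4495 CPM. PIN2, a root auxin carrier, rose from 18.0 to 29.7 and from 18.3 to 35.0 CPM (adjusted p = 0.000154 and 1.19e-05). RBCS1A, SCR, COBL9 and STM were not called for light, and none of the 7 was called for genotype. The part of tissue make-up in the light results was not tested. The pollen marker GRP17, below the filter, had means of 0.0186 CPM in wild type and 0.373 in atrx-2 under normal light, and 0.182 and 0.398 under low light. CPM is the count scaled to a common library size, with library totals adjusted by TMM.

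Most core loci had no RNA detected in these seedlings. No count was assigned in any of the 12 libraries to 1114 members (75.8%), which at 3 counts over all libraries allows at most 0.0137 CPM. A further 283 members had some counts but stayed below the low-count filter, and 72 (4.90%) passed it. Outside the core, 18.0% of loci had no counts and 64.5% passed. The class of locus moved with this: among pseudogenes, 79.1% had no counts inside and 65.8% outside, and 1.34% against 7.54% passed. Within the protein-coding class the core differed too: 50.9% of members had no counts, against 10.1% outside, and 31% passed, against 74.9% outside. The 5 blocks were alike, with 71.5% (chromosome 2) to 78.4% (chromosome 1) of loci without counts. Ambiguous reads bear on 214 members, in which over 50% of 50-base windows recur elsewhere in the genome; the median over members was 9.79%.

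**Figure D1:**
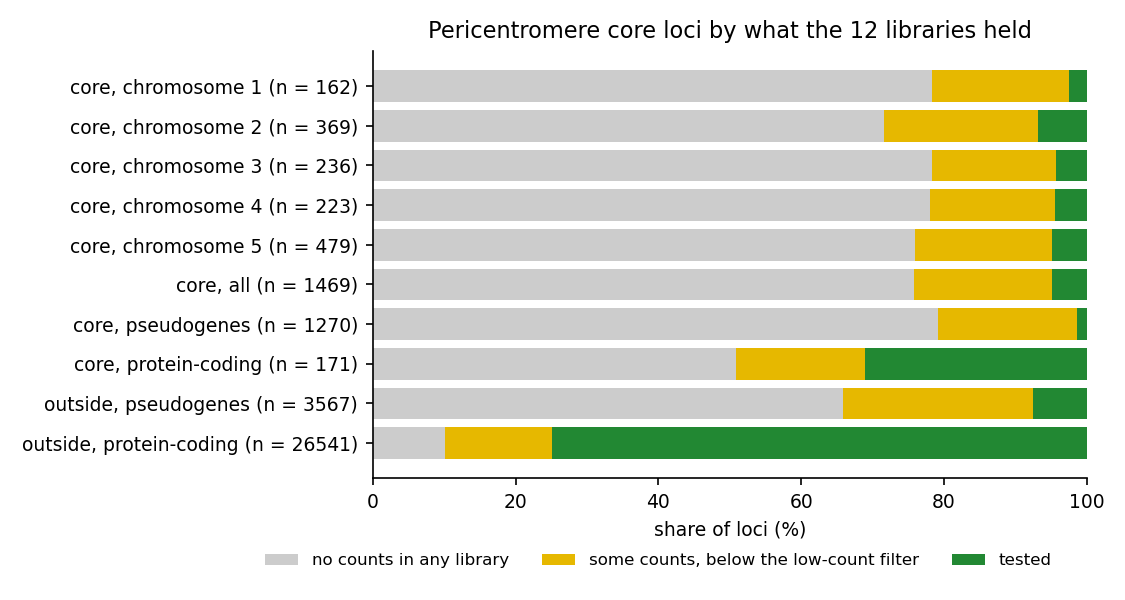
Share of loci (%) with no counts in any of 12 libraries, with some counts below the low-count filter, and tested, for each chromosome block of the core, for its classes and for the same classes outside. About 3 in 4 core loci were without counts in every block, and the tested share was 4.90% of the core.

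On chromosomes 3 and 5, small groups of neighbouring core loci held reads in atrx-2 and almost none in wild type. The chromosome 3 group is led by AT3G32020, a pseudogene at chr3:12992006-12992614 on the forward strand with no element family given. Its estimated counts in wild type were 0, 1 and 0 under normal light and 0, 0 and 0 under low light. In atrx-2 they were 7.37, 17 and 9 under normal light and 8.43, 3.69 and 4.83 under low light. Every atrx-2 library was above every wild type library at both light levels. The neighbouring pseudogene AT3G32000 (chr3:12984313-12987051) had no count in any wild type library, and 1.00, 4.69, 5.75, 1.00, 1.00 and 3.55 in the 6 atrx-2 libraries. AT3G32010 between them (chr3:12988334-12990208) had 1 count over the wild type libraries and 18.0 over those of atrx-2, none of it in replicates 1 and 2 of low light.

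Within 10000 bases of these loci lie 6 others. The 4 upstream loci are not members by name, and each had more counts over the atrx-2 libraries than over those of wild type: 5 against 1 for AT3G31980, 11 against 0 for AT3G31990, 2.15 against 0 for AT3G31993 and 2.57 against 0 for AT3G31996. The last shares windows with AT3G32020. The downstream loci AT3G32023 and AT3G32021 had no counts.

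The other group lies on chromosome 5. AT5G33390, annotated as a gene for a glycine-rich protein (chr5:12661708-12663496), had no count in wild type and 3, 1 and 3 counts in atrx-2 under normal light, with 1, 3 and 3 under low light. Its neighbour AT5G33395, a pseudogene at chr5:12664506-12666192, had 0, 1 and 0 counts in wild type against 2, 11 and 6 in atrx-2 under normal light, and 0, 1 and 0 against 4, 6 and 8 under low light. All 6 atrx-2 libraries exceeded all 6 wild type libraries at each of these loci. The 6 other loci within 10000 bases did not share this: AT5G33402 and AT5G33406 had 1.00 and 2 counts in wild type and none in atrx-2, AT5G33404 had 1 count in atrx-2, and 3 had none.

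AT3G32000 and AT5G33390 were the only loci of the 33602 that had at least 1 count in all 6 atrx-2 libraries and in no wild type library, and 0 loci showed the reverse. With up to 2 wild type libraries allowed, 23 loci qualified, 4 of them core members, against 11 loci and no member in the reverse direction. These loci were singled out after their counts were seen. They fall below the low-count filter, so edgeR's quasi-likelihood test was read without it, over 26436 loci, of which 347 are members. AT3G32020 then passed for genotype averaged over light (adjusted p = 0.00519) and under normal light (adjusted p = 0.0472), and AT5G33395 passed for the average (adjusted p = 0.0296). In that fit 0.378% of all loci were called for the average, 0.155% under normal light and 0.0984% under low light, where no member was called. The adjusted p of AT3G32000 was 0.142 and that of AT5G33390 was 0.151 for the average by the same edgeR test.

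Over 15 other settings of the unfiltered fit, which were chosen after seeing the data, the average for AT3G32020 kept an adjusted p of 0.000615 to 0.0175 by edgeR or DESeq2. Its normal-light call is weaker, with a range of 0.0302 to 0.302, and was lost in 9 of the 15. It was 0.219, 0.183, 0.302 and 0.0811 when wild type replicate 1, atrx-2 replicate 2, wild type replicate 3 or atrx-2 replicate 3 of normal light was omitted, and 0.0556, 0.0681 and 0.0656 when atrx-2 replicates 1, 2 or 3 of low light were. DESeq2 gave 0.0909. The call for AT5G33395 was lost in 7 of 15, all of them with 1 library omitted. The edgeR adjusted p was 0.0725, 0.102 and 0.0865 when wild type replicate 1, atrx-2 replicate 2 or wild type replicate 3 of normal light was omitted. It was 0.0963, 0.0731, 0.0508 and 0.0926 for low light when wild type replicate 1, atrx-2 replicate 2, wild type replicate 3 or else replicate 3 of atrx-2 was omitted.

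The groups differ in how much of their sequence is repeated. In AT5G33390 0.704% of 50-base windows recur elsewhere in the genome, and in AT5G33395 2.38% do. In AT3G32020 and AT3G32000, 71.6% and 55.3% of windows recur, and their counts are partly fractional as kallisto can divide a read among copies. The loci that share windows with AT3G32020, 67 in number, summed to 37.7 counts in all wild type libraries together, against 100 in atrx-2, and the 93 that share with AT3G32000 held 13.9 and 40.1. The locus that shares most with AT3G32020 is its neighbour AT3G31996, with 118 of 560 windows. AT5G33395 shares 15 of 1638 windows with AT1G36680, which itself held 49 counts in wild type and 87 in atrx-2. Which copy gave rise to such reads was not tested.

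**Figure D2:**
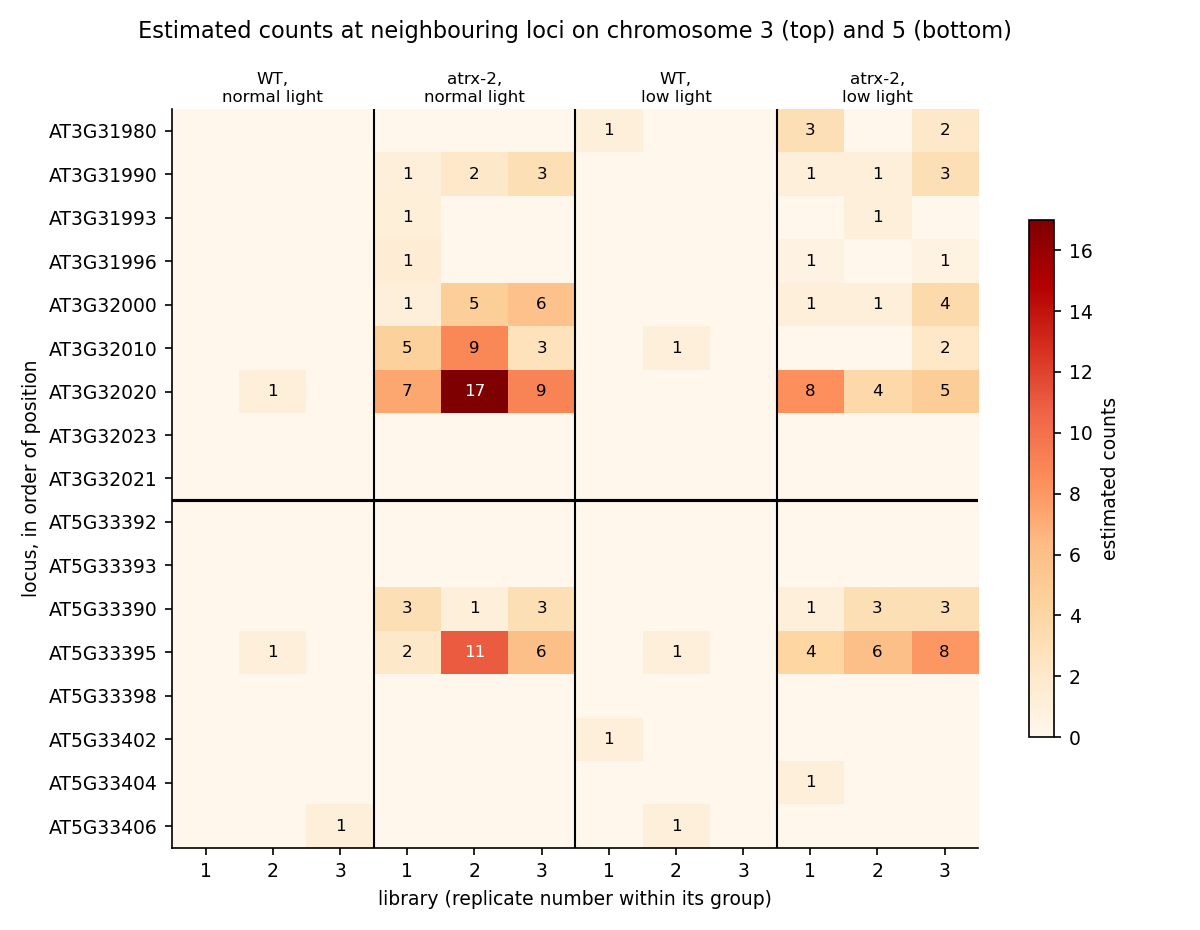
Estimated counts per library (columns, by group) at the annotated loci within 10000 bases of the chromosome 3 group (top) and the chromosome 5 group (bottom), in order of position; cells under 0.5 carry no figure. At the loci chosen for it, counts lie in the atrx-2 columns, up to 17 for AT3G32020, while the other chromosome 5 loci hold 1 count at most, and no wild type cell holds more than about 1 count.

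At a common depth, more pseudogene members held reads in atrx-2 than in wild type under normal light. At least 1 count was found in 61, 57 and 75 of the 1270 in wild type and in 75, 80 and 87 in atrx-2, which overlap. Thinned to the smallest library total, the wild type numbers expected were 52.2, 51.7 and 60.5 and those of atrx-2 were 65.7, 72.2 and 76.1, which do not overlap. Under low light they were 57.4, 68.4 and 75 against 65.5, 67.0 and 72.2, and overlapped. Pseudogenes outside the core gave 504 to 544 in wild type and 534 to 545 in atrx-2 under normal light on the same scale, with overlap. At 3 counts or more, the member pseudogenes numbered 24, 28 and 37 in wild type, against 31, 31 and 37 in atrx-2, under normal light. These numbers were not thinned, and the groups overlap, as the unthinned numbers at 1 count also did. Whether thinned numbers would separate at that cutoff was not tested.

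The level of members below the filter showed the same order. It is not a separate observation, as these members include the core loci of the chromosome 3 and 5 groups singled out above. Their summed level was 6.57, 6.29 and 7.53 CPM in wild type, against 8.99, 10.8 and 11.2 CPM in atrx-2, under normal light, with no overlap. Under low light it was 6.43, 9.49 and 12.5 CPM against 8.55, 9.92 and 11.2 CPM, with overlap. Of all members, 77 were detected in atrx-2 alone and 80 in wild type alone, of which 17 and 13 were so in at least 2 libraries. In 4 or more libraries of 1 genotype and none of the other there were 3 loci for atrx-2 and 0 for wild type. The third is AT5G34665, a pseudogene with 7.58 counts over 4 atrx-2 libraries. Among the 1270 member pseudogenes alone, 69 were detected only in atrx-2 and 69 only in wild type. In at least 2 libraries there were 15 and 7, and in at least 4 there were 2 and 0. Of the 3567 pseudogenes outside the core the same numbers were 227 and 192, 56 and 47, and 6 and 2. More loci for atrx-2 than for wild type at 4 or more libraries were thus seen outside the core too.

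None of the 72 tested members was called for genotype by edgeR at an adjusted p under 0.05. Over all 20783 tested loci the called share was 0.0674% under normal light, 0.0722% under low light, 0.308% for the average and 0.00481% for the genotype by light interaction. The smallest adjusted p among members was 0.483, 0.633, 0.225 and 0.978 in that order. At an unadjusted p under 0.05 there were 7, 1, 6 and 1 members, where 8.62%, 6.54%, 10.2% and 4.4% of all tested loci were, and DESeq2 called 0 in each comparison. A p that misses the threshold does not show that these loci are equal between genotypes: the median standard error of a member was 0.15 (log2) under normal light.

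The 4 members with the smallest p for the average were AT2G12190, AT5G34800, NUB1 and AT2G12462. AT2G12190, annotated as a cytochrome P450, was 1.53, 1.78 and 1.09 CPM in wild type, against 0.660, 1.14 and 0.849 CPM in atrx-2, under normal light, and 1.45, 1.71 and 1.61 against 1.08, 0.405 and 0.997 under low light. The groups overlapped under normal light and not under low light, and the averaged log2 difference was -0.80 ± 0.23 (SE; edgeR adjusted p = 0.225). AT5G34800, a pseudogene, was 0.560, 0.612 and 0.582 CPM in wild type, against 0.813, 0.828 and 1.5 CPM in atrx-2, under normal light, and 0.615, 0.659 and 0.848 against 0.969, 0.877 and 1.38 under low light. Its groups did not overlap at either light level, and the averaged log2 difference was 0.74 ± 0.23 (SE; edgeR adjusted p = 0.274). NUB1 (AT2G12550), a protein with a ubiquitin-associated domain, had -0.34 (edgeR adjusted p = 0.351), and AT2G12462, with a sterile alpha motif, had -0.29 (edgeR adjusted p = 0.356).

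The 17 tested pseudogene members leaned one way under normal light. All 17 log2 estimates were above 0, from 0.01 (AT5G34853, or MUG8) to 1.42 (AT5G34851), with a median of 0.34. The median was 0.11 for 269 pseudogenes outside the core, of which 64.7% were above 0, and -0.00 for all tested loci, of which 48.8% were above 0. Under low light 10 of the 17 were above 0 and the median was 0.04. These members share 6 libraries per contrast and are those that passed the filter, so the lean is given as a description. None was called.

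**Figure D3:**
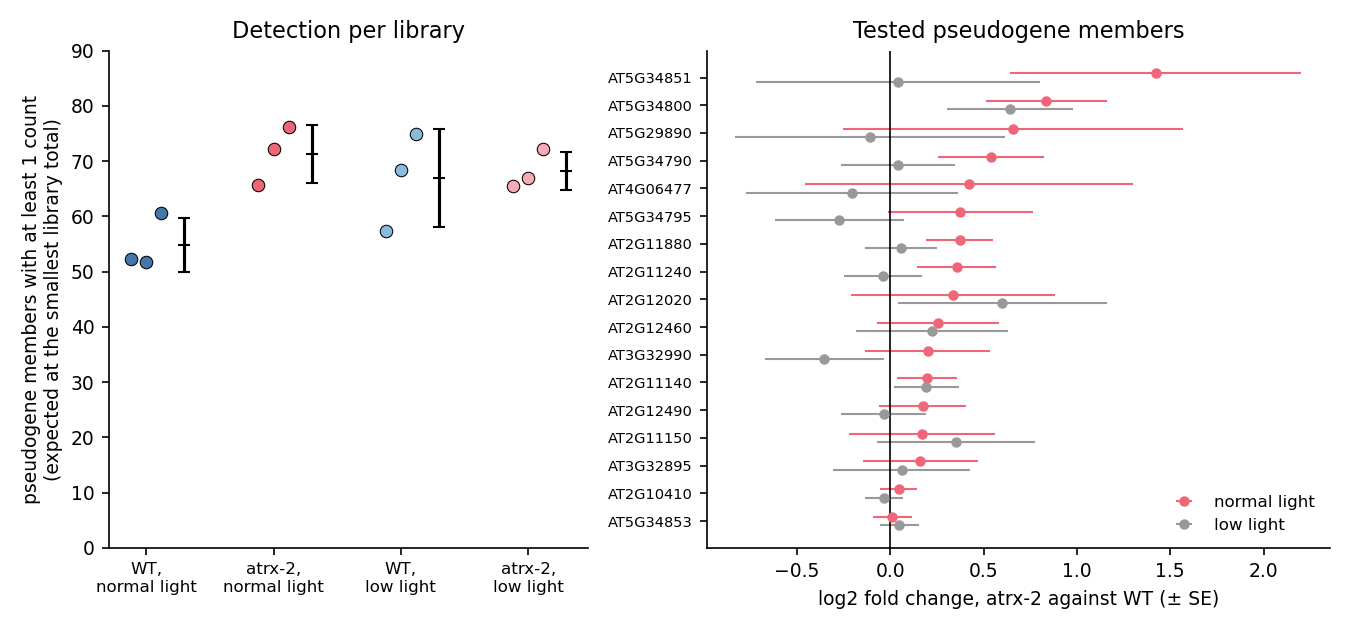
Left, the expected number of pseudogene members with at least 1 count per library at the smallest library total, with the mean and SD of each group of 3. Right, log2 fold change of atrx-2 against wild type (± SE) for the 17 tested pseudogene members. Under normal light the atrx-2 libraries (65.7 to 76.1) lie above wild type (51.7 to 60.5) and all 17 estimates lie above 0.

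Among 29 genes of silencing pathways, all tested, MORC6 (AT1G19100), a GHKL ATPase that condenses heterochromatin, was called for genotype. It was 11.5, 10.7 and 10.2 CPM in wild type, against 17.0, 16.7 and 17.1 CPM in atrx-2, under normal light, with no overlap (log2 0.65 ± 0.10 SE; edgeR adjusted p = 0.0232). Under low light it was 9.95, 12.6 and 12.5 CPM against 13.8, 13 and 14 CPM, with no overlap either (log2 0.23 ± 0.10 SE; edgeR adjusted p = 0.732). Averaged over light the log2 difference was 0.44 ± 0.07 (SE; edgeR adjusted p = 0.0122), and the difference between light levels was not called (edgeR adjusted p = 0.978). The list was chosen with results of these data known. None of the other 28 was called for genotype at either light level or for the average. For light, 37.9% of the 29 were called in wild type, where 34.2% of all tested loci were, and 31% in atrx-2, where 33.1% were. The called share was thus near the background, but the directions were not. In wild type 11 (37.9%) rose and 0 fell, against 16.6% and 17.6% of all tested loci. In atrx-2 7 (24.1%) rose and 2 (6.90%) fell, against 16.1% and 16.9%. The difference in direction was not tested. The 7 that rose in atrx-2 also rose in wild type: the DNA methyltransferase MET1, the histone chaperone subunit FAS1, and CMT2, HTA6, HTA7, FAS2 and NRPE1. The 2 that fell in atrx-2 were MORC6 (log2 -0.31, edgeR adjusted p = 0.0218) and HTA12 (log2 -0.45, edgeR adjusted p = 0.0119). In wild type neither was called for light (edgeR adjusted p = 0.447 and 0.824).

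Light changed members in both directions. By edgeR, 14 of 72 members (19.4%) were called in wild type, where 34.2% of all tested loci were: 10 were higher in low light, against 16.6% of all loci, and 4 were lower, against 17.6%. In atrx-2, 12 (16.7%) were called, where 33.1% of all were: 9 were higher, against 16.1%, and 3 were lower, against 16.9%. The difference between members and other loci was not tested. Without wild type low-light replicate 3 the wild type count was 9, where 5880 of all 20987 tested loci were called. Without atrx-2 low-light replicate 2 the atrx-2 count was 6, where 5503 of all 20974 were. With every library the calls over all loci were 7113 and 6870 of 20783. DESeq2 called 11 members in each genotype, where it called 6548 of all 20783 loci in wild type and 6248 in atrx-2. The light effects of the genotypes share no libraries, and no member was called for the difference between them.

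AT5G33370, a GDSL-type lipase of the family that holds the cutin synthases, fell most among the members called. It was 28.6, 24.0 and 19.9 CPM in wild type under normal light and 7.89, 6.66 and 8.14 CPM under low light, and 25.3, 30.0 and 21.0 against 11.8, 8.43 and 7.60 in atrx-2. The light levels did not overlap in either genotype. The log2 change was -1.67 ± 0.18 (SE; edgeR adjusted p = 7.55e-06) in wild type and -1.46 ± 0.17 (SE; edgeR adjusted p = 1.75e-05) in atrx-2. PAP26, a purple acid phosphatase of the vacuole and cell wall, fell by 0.34 and 0.33 on the log2 scale (edgeR adjusted p = 0.00496 and 0.00602), from means of 211 ± 16.6 to 167 ± 6.32 CPM in wild type and 198 ± 7.57 to 158 ± 12.7 CPM in atrx-2 (SD, n = 3). The noncoding RNA AT5G34871 fell from 1.04 ± 0.398 to 0.423 ± 0.148 CPM in wild type and from 1.15 ± 0.328 to 0.42 ± 0.228 CPM in atrx-2 (SD, n = 3; edgeR adjusted p = 0.0388 and 0.0215). The peroxidase gene AT3G32980 fell in wild type, from 355 ± 18.0 to 286 ± 33.8 CPM (SD, n = 3; edgeR adjusted p = 0.0214), and was 298 ± 27.2 and 262 ± 19.4 CPM in atrx-2 (edgeR adjusted p = 0.169).

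Among the rises, AT4G06477, a pseudogene at chr4:3060975-3065294 on the reverse strand, moved most. It was 1.17, 3.12 and 1.86 CPM in wild type under normal light and 20.4, 12.4 and 41.4 CPM under low light, and 1.27, 1.45 and 5.35 against 3.70, 27.6 and 32.0 CPM in atrx-2. The light levels did not overlap in wild type and overlapped in atrx-2. The log2 change was 3.59 ± 0.72 (SE; edgeR adjusted p = 0.00147) in wild type and 2.96 ± 0.69 (SE; edgeR adjusted p = 0.00425) in atrx-2. Its level varied widely between replicates, with a within-group SD of 1.08 (log2), rank 14 of 11638 loci with a mean of at least 10 CPM. Over the 12 libraries, in which the ribosomal RNA share also differs with light, the loci most like it by Pearson's r of log2 CPM were the protein-coding AT3G61540 (0.966), ALDH10A9 (0.966), AT2G01021 (0.964) and HAM1 (0.955). They were followed by the ribosomal RNA loci AT2G01020 and AT3G41979 (0.955), which carry identical values. By locus code AT2G01021 stands directly after the ribosomal RNA locus AT2G01020. Ranks 7 and 8 were the chloroplast loci ATCG01160 and ATCG00970 (0.954), also with identical values. The part of ribosomal RNA in the rise was not tested.

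SADHU1-1 (AT2G10410), a member of the Sadhu family of non-autonomous retroelements, rose as well. It was 66.0, 73.1 and 68.1 CPM in wild type under normal light and 101, 81.0 and 91.0 CPM under low light, and 79.6, 64.8 and 69.2 against 80.0, 92.4 and 94.8 CPM in atrx-2. The light levels did not overlap in either genotype, and the log2 change was 0.40 ± 0.10 and 0.32 ± 0.10 (SE; edgeR adjusted p = 0.00656 and 0.0225). The genotypes overlapped at both light levels. SADHU1-1 shares 122 bases with AT2G10405 on the opposite strand. The WD-40 repeat gene AT3G33530 rose by 0.47 and 0.39 (log2; edgeR adjusted p = 0.000508 and 0.00188), AT2G12905, an uncharacterized protein-coding locus, by 1.1 and 0.99 (edgeR adjusted p = 0.0221 and 0.0294), and AT3G32930, annotated as a lumazine synthase of riboflavin synthesis, by 0.27 and 0.33 (edgeR adjusted p = 0.0143 and 0.00456).

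Other calls were made in 1 genotype. In wild type, RAP2.9 (AT4G06746), an AP2-type transcription factor, rose by 1.62 ± 0.39 (log2, SE; edgeR adjusted p = 0.00468), from 0.357, 1.00 and 0.776 to 2.96, 2.44 and 1.02 CPM. AT2G11240 rose by 0.77 (edgeR adjusted p = 0.0115), AT5G34795 by 1.17 (edgeR adjusted p = 0.0227) and AT3G32990 by 0.93 (edgeR adjusted p = 0.0395), and all of these are pseudogenes. AT2G11240 shares 5044 bases with the protein-coding locus AT2G11225 on the opposite strand, and strand use in the counting is not given, so their reads cannot be told apart. The last call in wild type, a kinesin-like gene named here because it alone remained, was AT5G33300 (log2 0.39). In atrx-2, AT2G12400 rose by 0.28, AT5G32470 by 0.28, AT3G32030 by 0.89 and AT2G10940 by 0.24 (edgeR adjusted p = 0.0121, 0.0245, 0.0464 and 0.0484). The difference between genotypes was not called for any of them.

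Over 18 alternatives, 13 light calls in wild type and 12 in atrx-2 were followed, of which 6 and 5 held throughout. They were AT5G33370, PAP26, AT4G06477 and AT3G33530 in both genotypes, SADHU1-1 and RAP2.9 in wild type and AT3G32930 in atrx-2. The least steady were AT3G32030 and AT2G10940 in atrx-2, lost in 15 and 11 of the 18, and AT5G34871 in wild type, lost in 7. The other calls followed were each lost in 1 to 5. The wild type call of AT5G33300 was not followed.

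**Figure D4:**
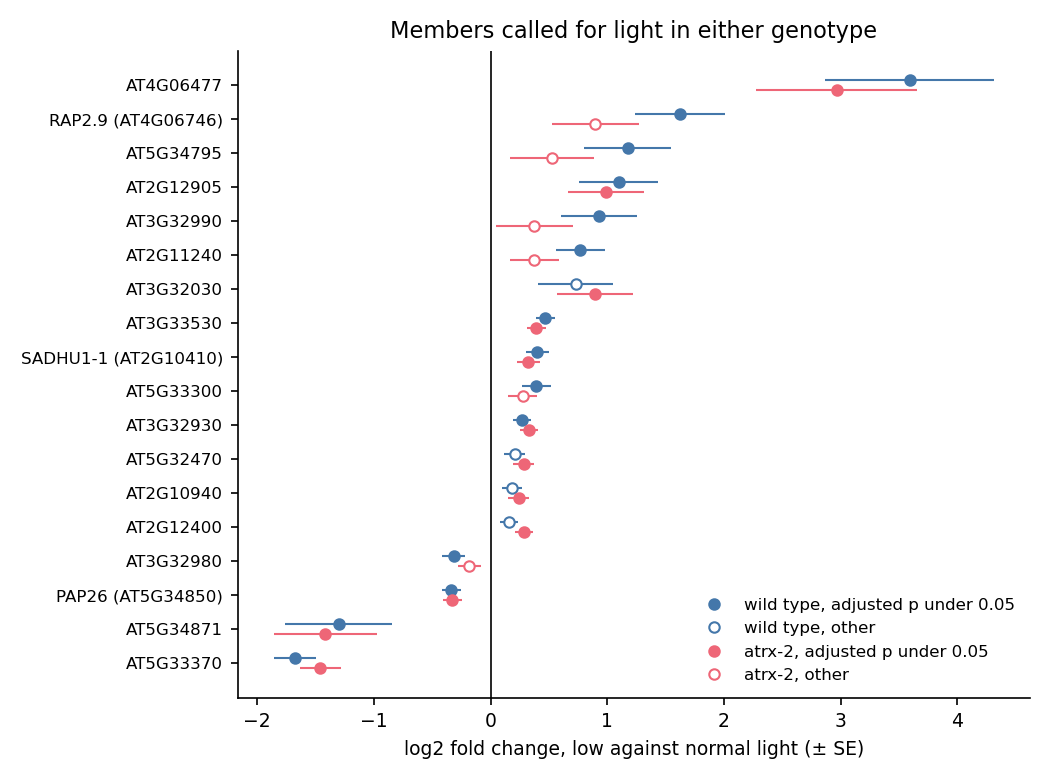
Log2 fold change of low against normal light (± SE) in wild type and atrx-2 for the 18 members called in at least 1 genotype; filled points have an adjusted p under 0.05. AT4G06477 lies at 3.59 and 2.96 and AT5G33370 at -1.67 and -1.46, and the genotypes lie on the same side of 0 for every one of the 18.

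The expressed core rests on few genes. Its summed level was 3204 ± 41.6 CPM in wild type and 3209 ± 139 CPM in atrx-2 under normal light, and 3330 ± 12.4 and 3341 ± 42.4 CPM under low light (SD, n = 3). The order of the light levels depends on the TMM scaling: on plain library totals the means were 3346 and 3453 CPM under normal light and 3071 and 3225 CPM under low light. Without AT5G34851 they were 3152 CPM in wild type and 3072 CPM in atrx-2 under normal light, which turns the order of the genotypes. AT2G10940, annotated as a lipid-transfer and bifunctional inhibitor protein, made up 31.9% of the level averaged over libraries, and the first 10 members made up 77.7%. Per kilobase of effective length it was also first, at 901 CPM per kb. AT1G41880, a ribosomal protein of the large subunit, reached 327, the peroxidase gene AT3G32980 243 and RPS1, the plastid ribosomal protein S1, 234 CPM per kb. The 126-base locus AT2G11271 gives 333 CPM per kb, but on an effective length of 6.67 bases and 491 counts, so that value says little. PAP26 stood at 99.2, SADHU1-1 at 92.0, CUE1, the plastid phosphoenolpyruvate translocator, at 80.6 and SKS6 at 47.4 CPM per kb. The highest of the chromosome 4 block, the leucine-rich repeat gene AT4G06744, was at 20.4 CPM per kb. None of these was called for genotype.

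Near the filter, the 5 untested members with most counts held 82 (AT2G10735), 77 (AT5G33330), 72 (AT5G33382), 69 (AT2G12450) and 69 (AT2G12440) counts over all libraries. AT5G33382, a pseudogene, had 9, 4 and 10 counts in wild type, against 10, 10 and 8 in atrx-2, under normal light. Under low light it had 0, 4 and 0 against 4, 4 and 9, with the groups meeting at 4. AT2G12450 had 2, 3 and 3 against 5, 5 and 4 under normal light, and 10, 8 and 5 against 6, 6 and 12 under low light. Its genotypes were apart under normal light and overlapped under low light. All 2517 windows of AT1G38065 also stand in AT1G38131, so its level is uncertain. AT1G38131 shares 78.4% of its 3209 windows with it, and its level is uncertain to that extent.

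AT5G34851, a pseudogene at chr5:13086817-13091997 on the forward strand, had the largest spread between replicates of the core members with a mean of at least 10 CPM. It was 19.3, 128 and 7.80 CPM in wild type, against 192, 139 and 80.6 CPM in atrx-2, under normal light. Under low light it was 119, 74.3 and 153 against 24.6, 151 and 180 CPM. The genotypes overlapped at both light levels, and wild type replicates under normal light spanned 7.80 to 128 CPM (averaged log2 difference 0.73 ± 0.54 SE; edgeR adjusted p = 0.689). Its within-group SD of 1.34 (log2) was rank 4 of 11638 loci with a mean of at least 10 CPM. The summed level of pseudogene members was 248 ± 77.0 CPM in wild type and 366 ± 39.6 CPM in atrx-2 under normal light, and 196 ± 28.4 and 229 ± 18.9 CPM without AT5G34851 (SD, n = 3). Under low light it was 420 ± 73.2 and 415 ± 138 CPM, and 305 ± 37.8 and 297 ± 56.7 CPM without it.

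AT5G34851 holds a run of 30 A starting at its base 62. Of the 8 tested loci most like it over the 12 libraries (Pearson's r of log2 CPM, 0.972 to 0.997), 7 hold a run of at least 25 A or T, against 0.317% of 20529 tested annotated loci. Across all 64 tested loci with such a run apart from AT5G34851, the median r was 0.27, against -0.01 for the other 20718. The 64 include the 7 loci that showed the pattern, so this median is not a separate check of it. The likeness is over libraries that share depth and preparation, the pattern was noticed in these data, and its cause was not tested. Runs with 30 bases on either side are given for AT5G34851 and 3 of these loci, with the run in capitals, on the strand of each locus in TAIR10.1.
AT5G34851, chr5:13086848-13086937, forward strand: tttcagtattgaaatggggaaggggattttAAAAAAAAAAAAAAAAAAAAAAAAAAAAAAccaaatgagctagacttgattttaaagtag
AT5G43065, chr5:17280149-17280234, forward strand: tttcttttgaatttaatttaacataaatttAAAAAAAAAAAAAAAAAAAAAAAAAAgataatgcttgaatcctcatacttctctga
AT2G23880, chr2:10167041-10167132, reverse strand: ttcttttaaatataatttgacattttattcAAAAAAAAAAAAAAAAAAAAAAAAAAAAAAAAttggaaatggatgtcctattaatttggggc
AT2G30230, chr2:12897718-12897813, forward strand: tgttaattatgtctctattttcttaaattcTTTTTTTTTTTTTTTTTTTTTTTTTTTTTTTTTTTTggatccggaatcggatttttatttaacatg
The most alike locus, the pseudogene AT5G43065, has a run of 26 A and r = 0.997, while AT2G30230 has a run of 36 T and r = 0.972. AT5G34851 was the only core member with a run of that length.

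**Figure D5:**
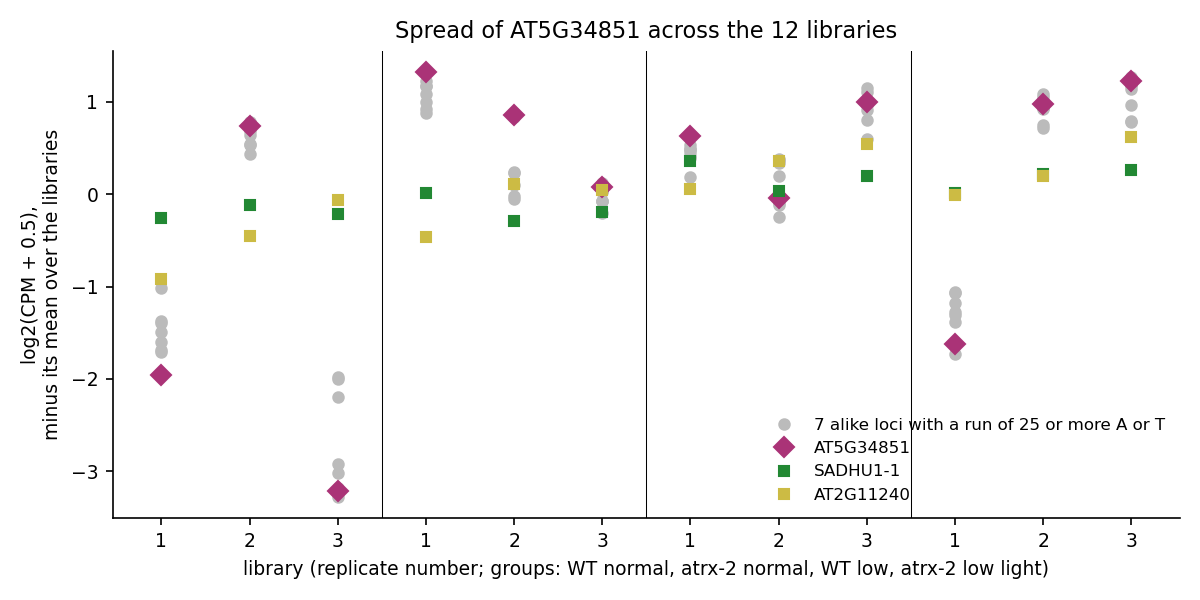
Log2(CPM + 0.5), minus the mean over libraries, in each of the 12 libraries for AT5G34851 (diamonds), the 7 alike loci with an A or T run of at least 25 (grey) and, for comparison, SADHU1-1 and AT2G11240 (squares). AT5G34851 and the grey points fall together in wild type normal-light replicates 1 and 3 and in atrx-2 low-light replicate 1, where AT5G34851 was at 19.3, 7.80 and 24.6 CPM.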

How the data were processed

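The authors deposited kallisto 0.42 estimated counts, effective lengths and TPM for 33602 loci in 12 libraries, made against TAIR10, per the submitters' processing notes. DESeq2 is named there too. The deposited TPM were not used. Reads were single, of 50 bases, with total RNA as input, per the labels. No source used here gives the strand option.

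Estimated counts were rounded and tested in edgeR 4.0.16 under R 4.3.3 (filterByExpr by group, 20783 loci; TMM; quasi-likelihood F test over 4 groups, 8 residual degrees of freedom, two-sided; Benjamini-Hochberg over all loci). Called, rose and fell mean an adjusted p under 0.05. DESeq2 1.42.0 was an alternative. The steps were tested on simulated data. Repeat shares used 50-base windows of TAIR10.1, both strands.

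Members, lists and the naming rule were chosen with earlier results of these data known. Named are members called in a comparison (at most 6 higher and 6 lower for light when over 12), the 10 highest by CPM and 5 by CPM per kb, the 5 with most counts below the filter, the highest per block and the 4 smallest averaged genotype p. The chromosome 3 and 5 groups and run loci were chosen after their values were seen. Chi-square per locus between replicates was 6.04 to 29.4, so no library was counted as a duplicate. Bounds cover counting error only.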

Additional observations from a re-analysis of the deposited data

How the results depend on the processing

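Depth limits the core: 1397 members lay below the filter. Without a low-count filter, 1 member was called for genotype under normal light, where 0.155% of all 26436 loci were. For the average 2 members were called, where 0.378% of all loci were. With the filter both counts were 0, and fewer loci were tested. Otherwise genotype and interaction counts stayed at 0 in every alternative run, with the replicate number as a block included. The numbers do not pair the libraries (correlations of -0.147 to 0.174), and no paired design is stated. The block gave 16 light calls among members in wild type and 12 in atrx-2, where 7540 and 7234 of all 20783 loci were called. The unfiltered normal-light adjusted p of AT3G32020 by edgeR became 0.104 with it. With 1 library left out, 5697 to 7503 of all loci were called for light in wild type and 5398 to 7046 in atrx-2, with 20930 to 20988 tested. Leaving out 1 library gave 9 to 15 light calls among members in wild type, 6 to 11 in atrx-2 and 0 to 0 for genotype. It gave 126 to 138 (wild type) and 146 to 152 (atrx-2) members detected under normal light, 135 to 142 and 137 to 144 under low light, and summed levels of 3190 to 3228, 3165 to 3289, 3326 to 3338 and 3323 to 3364 CPM in the order wild type and atrx-2 under normal, then low light. In that order, 90, 93, 84.7 and 92 members were detected at 3 counts or more. Thinning gave 121, 138, 132 and 133, and members with at most 50% repeated windows 124, 135, 129.7 and 128. Summed levels without AT2G10940 were 2240, 2239, 2234 and 2196 CPM. On plain library totals they were 3346, 3453, 3071 and 3225 CPM, which turns the order of the light levels. Without organelle and ribosomal RNA loci they were 3742, 3769, 3923 and 3926 CPM. Without AT5G34851, chosen after seeing the data, they were 3152, 3072, 3215 and 3223 CPM, which turns the order of the genotypes under normal light. Members with at most 50% repeated windows summed to 3310 CPM in wild type under low light. The cause of these shifts was not tested. For single loci, 479 values kept their side of the threshold, 82 fell to its other side and none reversed.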
